A study of Arabidopsis thaliana with 39 samples.

Results

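The genes described here are those of the RALF-like family of signalling peptides whose symbol in the ATH1 probe table starts with RALFL, 11 of the 13356 genes that the table names with a probe set of their own. They are RALFL18, RALFL22, RALFL24, RALFL25, RALFL26, RALFL27, RALFL28, RALFL31, RALFL32, RALFL33 and RALFL34, each with 1 named probe set, so no choice among probe sets arose. RALF1 and RALF23 of the same family had no named probe set and were not analysed here. The arrays held RNA from the oscillation zone of the Arabidopsis thaliana root tip, a stretch where gene expression oscillates before lateral roots form. The region OZ2 had 19 arrays and the region OZ1 had 20. All plants were of ecotype Columbia, carried the auxin reporter DR5-GUS given as the source, and were 5 days old on standard media, with no treatment named. One label field calls OZ1 the lower part and another the upper, and OZ2 the reverse, so the regions are called by these names alone.

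RALF peptides are small, cysteine-rich peptides that cells secrete into the wall. Their name, rapid alkalinization factor, comes from the rise in pH that they cause outside the cell. They act through receptor kinases of the FERONIA family, with membrane-anchored co-receptors and with leucine-rich repeat extensins of the wall, and several of them slow the elongation of root cells. RALFL34 is known as a ligand of the receptor kinase THESEUS1 and as a regulator of the cell divisions that start a lateral root.

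Signals are log2 of the scaled MAS5 intensity, and a level can be compared between arrays for 1 gene but not between genes, because each probe set has its own brightness. Testing was limited to probe sets with a mean above log2 5.69 over the 39 arrays. This held for 7 of the 11 genes. RALFL18, RALFL25, RALFL26 and RALFL28 lay below it, with means of 4.67, 4.86, 4.91 and 5.50. Whether any of those 4 transcripts was present cannot be read from these values.

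Of the 7 tested genes, RALFL32, RALFL22 and RALFL27 were higher in OZ2, RALFL34 was lower in OZ2, and RALFL33, RALFL24 and RALFL31 did not pass the test. That is 4 called genes of 7, where 29.0% of all 13627 tested probe sets were called (13.3% higher and 15.6% lower in OZ2). The median log2 difference was 0.60 over the 7 genes and -0.09 over all tested probe sets. Calls are adjusted p-values under 0.05 from limma, fitted over all tested probe sets on the 39 arrays. The series text speaks of 39 individual roots, yet 14 of the 25 title numbers are found under both OZ2 and OZ1, so how arrays relate to plants is not settled and the p-values measure the spread between these arrays.

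RALFL34 (locus AT5G67070, probe set 247037_at) had log2 signals from 6.96 to 11.30 with a median of 8.56 in OZ2, against 7.65 to 12.23 with a median of 11.34 in OZ1. No OZ2 array lay above the OZ1 median, and 19 of the 20 OZ1 arrays lay above the OZ2 median, although the ranges overlapped. The mean was 8.61 ± 1.07 in OZ2 (SD, n = 19) and 10.80 ± 1.23 in OZ1 (SD, n = 20). RALFL34 was 4.55-fold lower in OZ2 (-2.19 ± 0.35 SE on the log2 scale, 95% interval -2.89 to -1.48, limma adjusted p = 8.64e-06).

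RALFL32 (AT4G14010, 245386_at) ran the other way. Its log2 signals were 9.53 to 13.83 with a median of 12.94 in OZ2, against 8.35 to 13.36 with a median of 9.93 in OZ1. In OZ2 18 of 19 arrays lay above the OZ1 median, and 1 OZ1 array lay above the OZ2 median. The fold was 5.42 in favour of OZ2 (2.44 ± 0.39 SE on the log2 scale, 95% interval 1.65 to 3.22, adjusted p from limma 9.04e-06), with means of 12.71 ± 1.06 in OZ2 (SD, n = 19) and 10.27 ± 1.51 in OZ1 (SD, n = 20).

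RALFL22 (AT3G05490, 259106_at), a peptide that binds extensins in the wall of root hairs, had log2 signals of 8.75 to 13.62 with a median of 12.82 in OZ2, against 8.43 to 12.42 with a median of 9.68 in OZ1. For this gene 14 of the 19 OZ2 arrays lay above the highest OZ1 array, compared with 4 for RALFL32 and 6 for RALFL27. RALFL22 stood 5.19-fold higher in OZ2 (2.38 ± 0.39 SE on the log2 scale, 95% interval 1.60 to 3.15, adjusted p from limma 1.1e-05). RALFL27 (AT3G29780, 256563_at) had log2 signals of 7.74 to 12.26 with a median of 10.47 in OZ2, against 6.59 to 11.01 with a median of 8.70 in OZ1. Its difference was smaller, at 3.11-fold higher in OZ2 (1.64 ± 0.33 SE on the log2 scale, adjusted p from limma 0.000214).

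**Figure D1:**
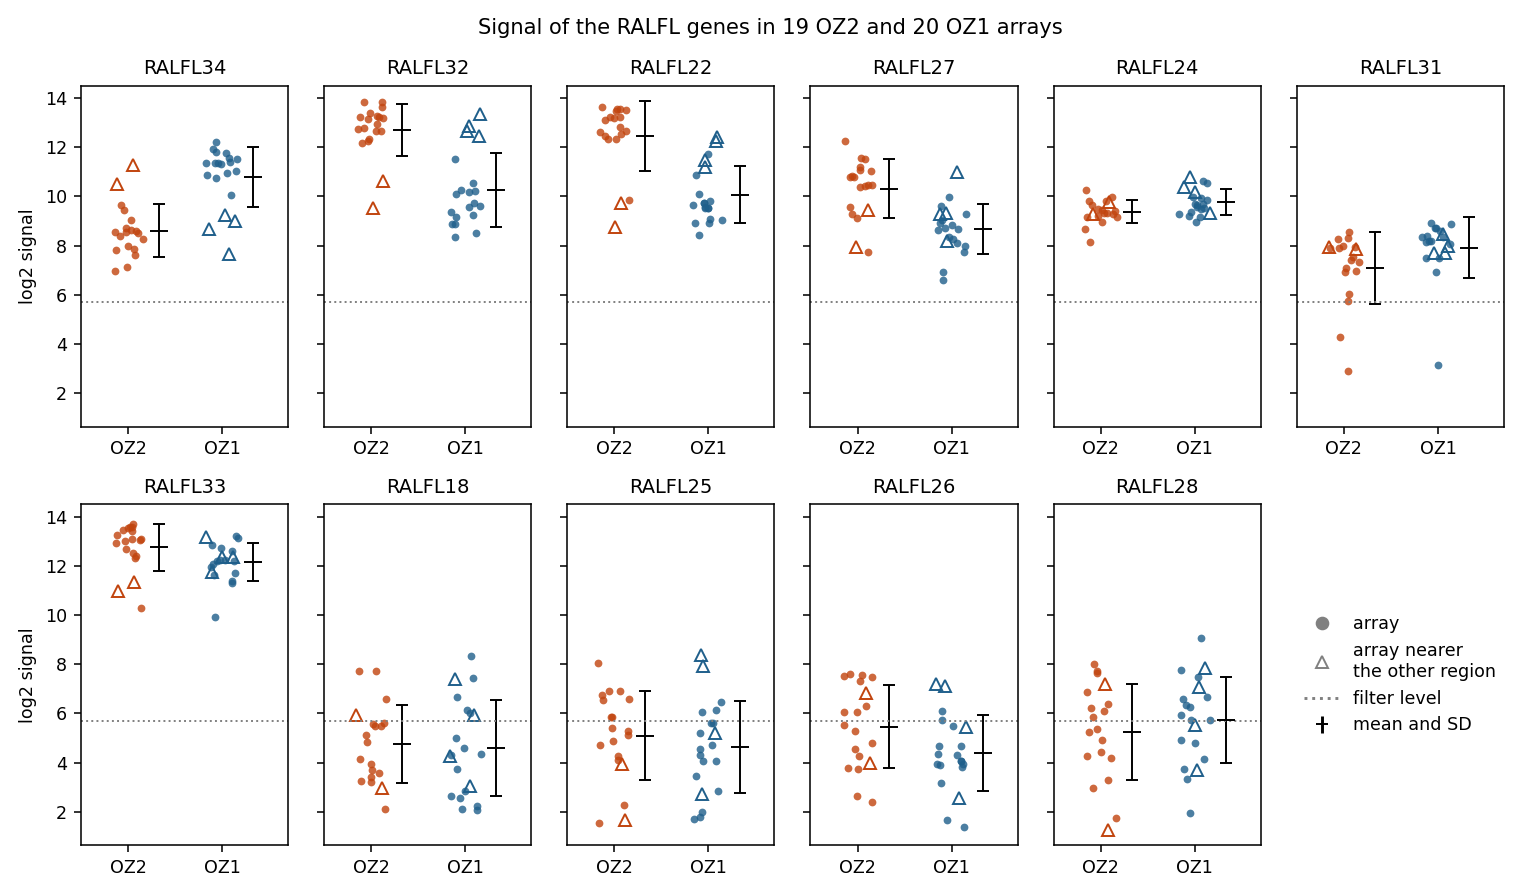
Log2 signal of each RALFL gene (vertical axis) in the 19 OZ2 arrays (left in each panel) and the 20 OZ1 arrays (right). Each point is 1 array, triangles are the 6 arrays whose whole profile lay nearer the other region, bars give the mean and SD, and the dotted line is the filter level of log2 5.69. RALFL34 is lower and RALFL32, RALFL22 and RALFL27 are higher in OZ2, and the 4 genes RALFL18, RALFL25, RALFL26 and RALFL28 scatter around or below the filter level in both regions.

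RALFL33 (AT4G15800, 245334_at), a peptide known for dampening immune responses through FERONIA, had log2 signals of 10.29 to 13.70 with a median of 13.04 in OZ2, against 9.93 to 13.22 with a median of 12.21 in OZ1. Its log2 difference of 0.60 ± 0.27 SE (95% interval 0.06 to 1.15) did not pass (limma adjusted p = 0.0885). RALFL33 passed when any one of the arrays OZ2-10, OZ2-32 or OZ2-38 was left out (limma adjusted p 0.0207, 0.0347 and 0.0447, and up to 0.152 without another array), and these 3 arrays had its lowest signals in OZ2.

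RALFL24 (AT3G23805, 257204_at) was among the steadiest transcripts. Its SD was 0.47 in OZ2 and 0.52 in OZ1, and 1.92% and 7.90% of all tested probe sets had a lower SD in OZ2 and in OZ1. Its medians were 9.33 in OZ2 and 9.66 in OZ1, and the log2 difference of -0.39 ± 0.18 SE (95% interval -0.76 to -0.02) did not pass (limma adjusted p = 0.103). RALFL31 (AT4G13950, 245310_at) had medians of 7.56 in OZ2 and 8.19 in OZ1. In OZ2 3 of the 19 arrays lay above the OZ1 median, and 16 of the 20 OZ1 arrays lay above the OZ2 median. A few arrays stood far below the rest, OZ2-19 at 2.90, OZ2-20 at 4.27 and OZ1-15 at 3.16. Its log2 difference of -0.82 ± 0.41 SE did not pass (limma adjusted p = 0.129). It was -1.07 without OZ1-15, which passed (limma adjusted p = 0.016), -0.59 without OZ2-19 (0.232) and -0.67 without OZ2-20 (0.214).

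The 4 genes below the filter level spread widely in both regions. RALFL18 ran from 2.10 to 7.75 in OZ2 and from 2.08 to 8.35 in OZ1, and RALFL25 from 1.56 to 8.06 in OZ2 and from 1.71 to 8.36 in OZ1. RALFL26 had medians of 5.52 in OZ2 and 4.19 in OZ1, and RALFL28 of 5.38 in OZ2 and 5.85 in OZ1. Signals above the filter level occurred in 4, 8, 9 and 9 of the 19 OZ2 arrays for RALFL18, RALFL25, RALFL26 and RALFL28, and in 7, 5, 4 and 12 of the 20 OZ1 arrays. With no filter, when they entered the fit, none of the 4 passed, and the smallest limma adjusted p was 0.163, for RALFL26 (log2 difference 1.08 ± 0.52 SE). RALFL25 and RALFL26 are direct neighbours on chromosome 3 in the reference annotation, with 0 protein-coding genes between them.

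RALFL34 and RALFL32 were also displaced in the arrays that did not lie with their region. On an axis between the means of the regions over all tested probe sets, 6 arrays lay nearer the other region: OZ2-32 and OZ2-38, and OZ1-2, OZ1-3, OZ1-6 and OZ1-10. The axis included RALFL34 and RALFL32. A gene with a large difference between the regions thus tends to be displaced in these arrays by the way they were picked. The share of all tested probe sets displaced in this way is not given here. The log2 signal of RALFL34 was 10.53 in OZ2-32 and 11.30 in OZ2-38, against 6.96 to 9.66 in the other 17 OZ2 arrays. It was 8.98, 8.66, 9.27 and 7.65 in OZ1-2, OZ1-3, OZ1-6 and OZ1-10, against 10.08 to 12.23 in the other 16 OZ1 arrays. Each of the 6 arrays thus lay outside the rest of its own region for RALFL34.

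The same was true of RALFL32, in the opposite direction. Its log2 signal was 10.64 in OZ2-32 and 9.53 in OZ2-38, against 12.19 to 13.83 in the other OZ2 arrays, and it was 12.45 to 13.36 in the 4 OZ1 arrays, against 8.35 to 11.51 in the other OZ1 arrays. RALFL22 and RALFL27 followed less strictly. For RALFL22 OZ2-10, which is not among the 6, was at 9.85, close to OZ2-32 at 9.75, and OZ1-9, also not among them, was at 11.75. For RALFL27 OZ1-3 was at 8.18, inside the range of 6.59 to 9.97 of the other 16 OZ1 arrays.

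Without these 6 arrays the regions did not overlap for RALFL34 or RALFL32, which was so for 2.36% of all tested probe sets. RALFL34 averaged 8.34 ± 0.73 in OZ2 (SD, n = 17) and 11.34 ± 0.52 in OZ1 (SD, n = 16), and RALFL32 averaged 13.02 ± 0.51 in OZ2 and 9.63 ± 0.83 in OZ1. The log2 differences were then -2.99 for RALFL34, 3.39 for RALFL32, 3.19 for RALFL22, 2.02 for RALFL27 and 0.86 for RALFL33, the last with a limma adjusted p of 0.00872. In that fit 5 of the 7 genes were called, 4 of them higher and 1 lower in OZ2, where 41.2% of all tested probe sets were (18.9% higher and 22.3% lower). The 6 arrays were picked by expression, so larger differences without them are a description and no further evidence of a difference. The 18 Affymetrix hybridisation control probe sets held 17.3% of the signal in OZ2-32 and 1.69% in OZ2-38, against a median of 2.67% over OZ2 arrays. They held 3.18%, 5.82%, 8.88% and 10.5% in OZ1-2, OZ1-3, OZ1-6 and OZ1-10, against a median of 2.38% over OZ1 arrays. High shares were also found in arrays that lay with their region, such as OZ2-9 at 14.8% and OZ1-31 at 9.55%. Over all arrays of a region, Pearson's r of the controls' mean log2 signal with RALFL34 was -0.56 in OZ1 and 0.08 in OZ2. With RALFL32 it was 0.44 in OZ1 and 0.02 in OZ2. The part of the controls' share in the place of the 6 arrays was not tested.

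The arrays had been scanned on 3 days, and both regions shared only scan day 1. That day held 10 OZ2 and 12 OZ1 arrays, among them 5 of the 6 arrays above, while scan day 3 held 9 OZ2 arrays and scan day 2 held 8 OZ1 arrays. With the scan day as a block, RALFL34 (log2 difference -2.21, limma adjusted p = 0.00199) and RALFL32 (1.90, adjusted p = 0.0129) passed, in a fit that called 11.3% of all tested probe sets (4.56% higher and 6.71% lower in OZ2). RALFL22 (1.32, adjusted p = 0.0564) and RALFL27 (0.81, adjusted p = 0.209) did not, and RALFL33 had a log2 difference of 0.13. Because scan day 2 held only OZ1 and scan day 3 only OZ2, the block took the region difference from scan day 1. Scan day 1 alone therefore gave the same log2 differences and is no separate support. That fit called 5.88% of tested probe sets (2.31% higher and 3.57% lower in OZ2). RALFL34 (limma adjusted p = 0.0157) and RALFL32 (0.0405) were the 2 genes that passed in it.

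The log2 difference of RALFL34 was -2.22 between OZ2 on scan day 3 and OZ1 on scan day 2, a comparison that called 26.9% of tested probe sets (13.0% higher and 13.9% lower in OZ2), and -2.21 on scan day 1. Without the 6 arrays these were -2.56 and -3.50, a change of 0.95 ± 0.40 SE that did not pass (limma adjusted p = 0.324, 1 of 13627 probe sets called). With all arrays RALFL22 differed by 3.67 and 1.32 in the same comparisons, RALFL27 by 2.68 and 0.81, and RALFL32 by 3.18 and 1.90. All 9 OZ2 arrays of scan day 3 had RALFL22 signals of 12.54 to 13.62, against 8.75 to 13.49 in the 10 OZ2 arrays of scan day 1. The excess of the first difference over the second was 2.35 ± 0.71 SE for RALFL22 and 1.86 ± 0.63 SE for RALFL27. The unadjusted p from limma was 0.00173 and 0.00468, and neither excess passed after adjustment (adjusted p from limma 0.205 and 0.231). Of the 13627 tested probe sets 0 were called, although 1750 had an unadjusted p under 0.05. Region and scan day cannot be told apart on scan days 2 and 3. On scan day 1 without the 5 arrays, which were picked by expression, RALFL22 (2.46, limma adjusted p = 9.56e-05) and RALFL27 (1.39, adjusted p = 0.0222) passed, in a fit that called 27.2% of all tested probe sets (12.6% higher and 14.6% lower in OZ2).

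**Figure D2:**
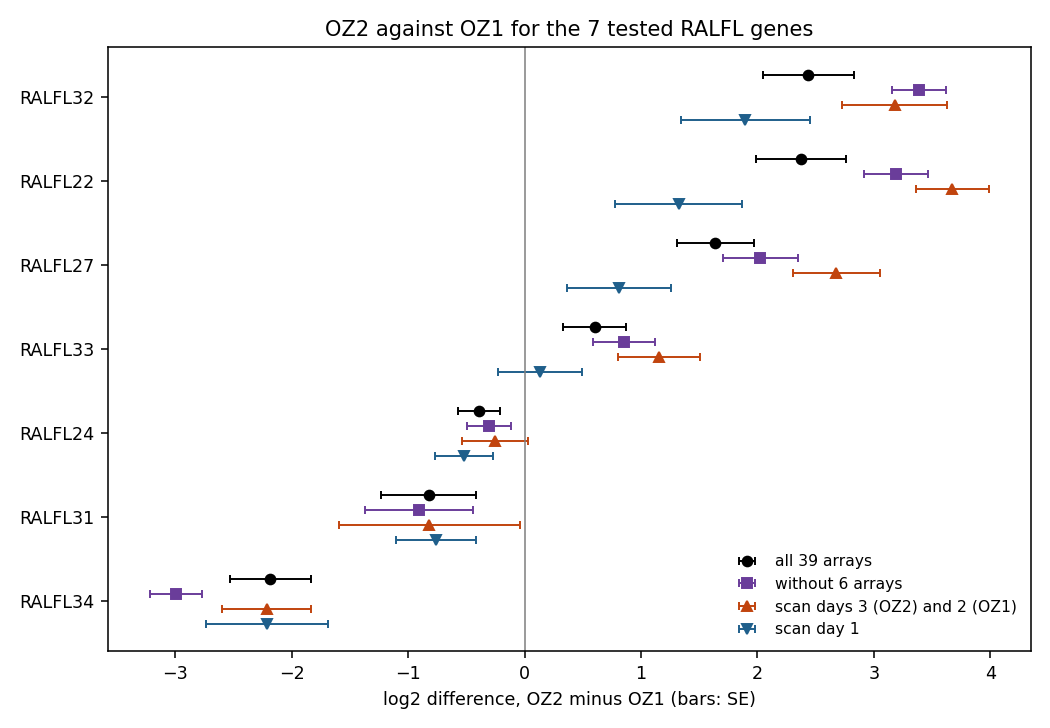
Log2 difference, OZ2 minus OZ1 (horizontal axis, bars are SE), of the 7 tested RALFL genes over all 39 arrays, without the 6 arrays nearer the other region, between scan day 3 (OZ2) and scan day 2 (OZ1), and on scan day 1. RALFL34 lies between -2.99 and -2.19 in the 4 sets, whereas RALFL32 runs from 1.90 to 3.39, RALFL22 from 1.32 to 3.67 and RALFL27 from 0.81 to 2.68.

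Within a region, RALFL22 and RALFL27 varied together. Of 12 relations among the 4 called genes, computed in each region without the 6 arrays, that of RALFL22 with RALFL27 had the highest Pearson's r in both. Pearson's r was 0.80 in OZ2 (17 arrays, permutation test, p = 0.00039, adjusted p = 0.00234, Spearman's rho 0.61, adjusted p = 0.0444) and 0.80 in OZ1 (16 arrays, permutation test, p = 0.00029, adjusted p = 0.00234, rho 0.74, adjusted p = 0.011). Without the 2 arrays farthest from the median of RALFL22 r was 0.53 in OZ2 and 0.73 in OZ1. In OZ2 1 of those arrays was OZ2-10, with RALFL22 at 9.85 and RALFL27 at 7.74. All values of an array share its scaling. The permutation tests here and below took no account of scan day. Over all OZ2 arrays the means on scan days 1 and 3 were 11.73 and 13.25 for RALFL22, and 9.80 and 10.88 for RALFL27. In OZ1 the means on scan days 1 and 2 were 10.41 and 9.57 for RALFL22, and 8.98 and 8.21 for RALFL27. The part of scan day in these relations was not tested, and r between other tested genes is not given beside them.

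RALFL27 and RALFL32 were related in OZ1 (r = 0.67, permutation test, p = 0.0044, adjusted p = 0.0176, rho 0.78, adjusted p = 0.00876, and r = 0.82 without the 2 farthest arrays), and in OZ2 r was -0.13 (permutation test, adjusted p = 0.734). RALFL22 and RALFL32 had an r of 0.60 in OZ1 (permutation test, p = 0.0146, adjusted p = 0.0438, rho 0.54, adjusted p = 0.104), which was 0.41 without the 2 farthest arrays, and -0.17 in OZ2 (adjusted p = 0.724). These values leave out the arrays nearer the other region, which were picked by expression. Over all 19 OZ2 arrays r was 0.40 for RALFL27 with RALFL32 and 0.67 for RALFL22 with RALFL32. Over all 20 OZ1 arrays r was 0.59 and 0.86. The negative r of both relations in OZ2 was thus found only without those arrays. Differences between the regions in these relations were not tested.

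RALFL34 and RALFL32, opposed between the regions, were not shown to oppose each other within one. Without the 6 arrays r was -0.08 in OZ2 (rho -0.03) and 0.27 in OZ1 (rho 0.15), with permutation test adjusted p-values of 0.823 and 0.477. With the 6 arrays included r was -0.71 in OZ2 and -0.76 in OZ1, so those values rest on arrays that lay with the other region. The remaining relations of RALFL34, with RALFL22 and RALFL27, did not pass either (lowest permutation test adjusted p = 0.128).

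**Figure D3:**
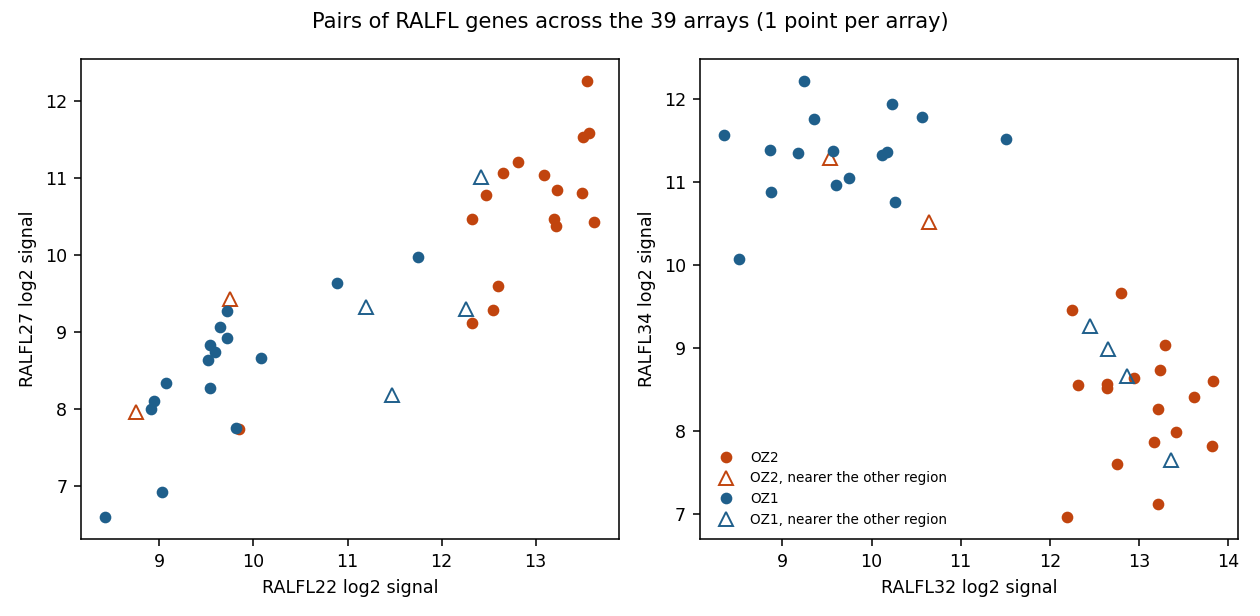
Log2 signal of RALFL27 against RALFL22 (left) and of RALFL34 against RALFL32 (right), 1 point per array, with triangles for the 6 arrays nearer the other region. RALFL22 and RALFL27 rise together inside each region, while RALFL32 and RALFL34 form 2 groups of arrays with no slope inside them that passed a test.

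The submitters ranked the 39 arrays to search for periodic expression, with OZ1 at positions 1 to 20 and OZ2 at 21 to 39. The sources used here do not say how the ranks were made. With the region in the model, 0 of the 7 tested RALFL genes passed a limma F-test of 3 harmonics along the order, where 0.411% of all tested probe sets passed. None had an unadjusted p under 0.05 either. The smallest was that of RALFL34 (p = 0.133, limma adjusted p = 0.524). Its fitted harmonics, taken apart from the region term, spanned 2.42 on the log2 scale, lowest at position 9 and highest at position 38. These are departures from the level of each region, not the lowest and highest signals. The fitted ranges of the 7 genes went from 1.10 for RALFL24 to 2.42 for RALFL34, and the median over all tested probe sets was 1.85. Position 38 is that of OZ2-38, and positions 6, 7, 11 and 13 are those of the 4 OZ1 arrays nearer OZ2. Without the 6 arrays the fitted range of RALFL34 was 1.26 (limma adjusted p = 0.824).

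**Figure D4:**
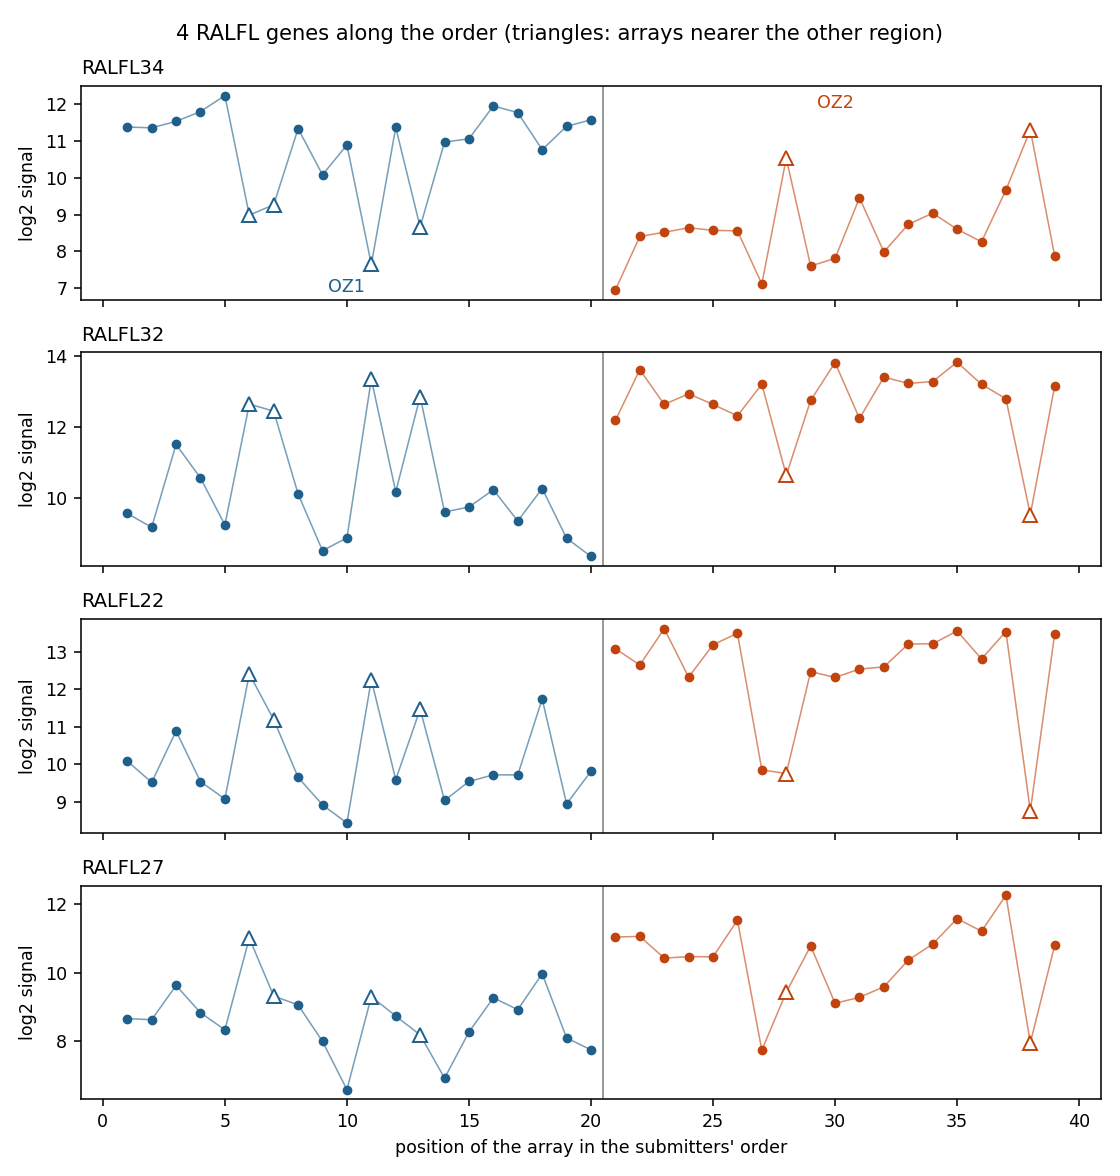
Log2 signal of RALFL34, RALFL32, RALFL22 and RALFL27 (vertical axes) by position of the array in the submitters' order (horizontal axis), with OZ1 at positions 1 to 20, OZ2 at 21 to 39 and triangles for the 6 arrays nearer the other region. The step at position 21 is downward for RALFL34 and upward for the other 3 genes, and the triangles at positions 6, 7, 11, 13, 28 and 38 are the deepest departures from it for RALFL34 and RALFL32.

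The genes around the peptides were looked at through a list of 35 loci for receptors, co-receptors, wall proteins, the processing protease and downstream components. Of these 15 had a named probe set and 8 were tested, so most of the pathway, all 4 co-receptors included, was not analysed here. Of the 8, 2 were higher and 1 lower in OZ2, beside 13.3% higher and 15.6% lower of all tested probe sets. Their median log2 difference was 0.02, and that of all tested probe sets was -0.09. FER, the receptor kinase FERONIA, had log2 signals of 7.59 ± 1.33 in OZ2 (SD, n = 19) and 6.45 ± 1.62 in OZ1 (SD, n = 20), and its difference of 1.13 ± 0.45 SE did not pass (limma adjusted p = 0.0537). The difference of FER was 0.55 with scan day as a block (limma adjusted p = 0.581). It was 1.69 without the 6 arrays, which were picked by expression (limma adjusted p = 0.0025). THE1, the receptor of RALFL34, had 9.92 ± 1.75 in OZ2 and 10.48 ± 0.91 in OZ1, with a difference of -0.56 ± 0.41 SE (adjusted p = 0.33). The difference of THE1 was -1.42 with scan day as a block (limma adjusted p = 0.0663) and -0.27 without the 6 arrays (limma adjusted p = 0.671). The other 3 that did not pass were AT2G21480, listed as a receptor (-0.72), and the listed wall proteins AT3G24480 (0.60) and AT4G18670 (-0.59).

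S1P, the subtilisin-like protease that cleaves some RALF precursors, was lower in OZ2 by a log2 difference of -0.92 ± 0.23 SE (adjusted p from limma 0.00241), at 7.46 ± 0.86 in OZ2 and 8.39 ± 0.44 in OZ1. Its call was lost once the scan day was a block (-0.64, adjusted p = 0.185). The called genes higher in OZ2 were AT2G41970, listed as a downstream component (2.43 ± 0.55 SE, limma adjusted p = 0.000776), and AT2G39360, listed as a receptor (1.56 ± 0.43 SE, adjusted p = 0.00505). With that block AT2G41970 lost its call (0.95, adjusted p = 0.402) and AT2G39360 kept it (2.10, adjusted p = 0.0142).

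Some genes that mark cell types differed between the regions along with the RALFL genes. Both tested root hair genes of 5 listed, EXPA18 and EXPA7, were higher in OZ2, by 4.23 and 3.43 on the log2 scale (limma adjusted p = 1.72e-06 and 9.17e-05). All 4 tested genes of dividing cells of 6 listed, HTB2, HTB4, BUB3.1 and AUR1, were lower in OZ2 (log2 differences -2.21, -1.57, -1.51 and -0.93). Over all tested probe sets 13.3% were higher and 15.6% lower in OZ2. Of the founder cell genes LBD16 was higher in OZ2 by 1.44 (limma adjusted p = 0.0268) and PUCHI had a difference of -0.25 (adjusted p = 0.711). The shoot tissue genes LHCB4.1 and PSBY were higher in OZ2 by 1.95 and 1.12 (limma adjusted p = 0.00852 and 0.0108), and the listed endodermis, xylem and root cap genes were not analysed here. When the scan day was a block, which called 11.3% of all tested probe sets, EXPA18 (adjusted p = 0.0026) and HTB4 (0.0474) passed, and EXPA7 (0.096), HTB2 (0.214), BUB3.1 (0.0878), AUR1 (0.285), LBD16 (0.206), LHCB4.1 (0.0659) and PSBY (0.107) did not. The part of these cell types in the RALFL differences was not tested, and in RNA of whole pieces fewer cells of a type cannot be told apart from less RNA per cell.

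Among 7520 other named genes, the 3 whose log2 signals over the 39 arrays were most like those of RALFL34 were AT5G66590 (Pearson's r = 0.93), AT5G16130 (0.93) and CuAO1, a copper amine oxidase (0.92). All 3 were lower in OZ2, by log2 differences of -2.96, -1.64 and -2.60. The ranking ran over both regions, so it favours genes that differ between them in the same direction as RALFL34, or as RALFL32 below. These directions are a description and no separate result. Within a region and without the 6 arrays r was 0.44, 0.44 and 0.40 in OZ2 and 0.29, 0.60 and 0.50 in OZ1. Those most like RALFL32 were AT5G26731 (r = 0.95), AT1G13930 (0.94) and AT3G18280 (0.94), all higher in OZ2, by 2.27, 2.70 and 4.76. Within a region and without the 6 arrays their r was 0.63, 0.34 and 0.53 in OZ2 and 0.80, 0.78 and 0.47 in OZ1. The median r over all genes ranked was 0.04 for RALFL34 and -0.04 for RALFL32.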

How the data were processed

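Total RNA was labelled with biotin and hybridised to 39 Affymetrix ATH1 arrays, 1 sample each. The deposited intensity values were made by the authors with MAS5, per the submitters' processing notes, and no version is stated. Every array had a trimmed mean of 249.8 to 249.9, which shows a scaling per array that can raise dim probe sets on arrays with little labelled RNA. The other deposited unit, instrument records, gave the scan day. No genome build is stated, so no coordinates are printed.

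Values were log2-transformed. Of 22810 probe sets 64 Affymetrix controls were left out, and 13627 above the 40th percentile of the mean were tested with limma 3.58.1 in R 4.3.3 (trended eBayes, two-sided, adjusted by Benjamini-Hochberg over those probe sets). The fit was tested on simulated data, drawn independently for each probe set and array, without scan days or displaced arrays. That run therefore does not bear on those features of the data. The number of arrays limits the precision, and no detection calls were used. Symbols come from the platform annotation, and 10 of the 11 members were matched to TAIR10.1 by Entrez number and RALFL22 by symbol. Every RALFL gene and every called gene of the pathway list is named, with the 3 genes most like RALFL34 and RALFL32. The 5 tested pathway genes without a call, FER and THE1 among them, fall outside that rule and were named after their values were seen. The members, lists and alternatives were chosen with earlier results of these data known. The alternatives covered normalization, filter, weights, scan day, title numbers, hybridisation controls and left-out arrays. The fits to scan day 1 without the 6 arrays, to scan days 2 and 3, to the shared title numbers without the block and to the order without the 6 arrays, and the scan day interaction, were chosen after seeing the data. Correlations between RALFL genes were planned over all arrays of a region, as a description without a p-value. Their limitation to the called genes, the removal of the 6 arrays and of the farthest arrays, and the permutation tests were not in that plan.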

Additional observations from a re-analysis of the deposited data

How the results depend on the processing

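RALFL34 and RALFL32 kept their direction and call in each of the 15 alternatives and without each array in turn, where the log2 difference ran from -2.35 to -2.09 for RALFL34 and from 2.34 to 2.61 for RALFL32. The count of called RALFL genes was 4 over all arrays and 4 to 5 without each array in turn. It was 2 both on scan day 1 alone and once scan day was a block, where RALFL22 and RALFL27 lost their call. Both of these fits give the same log2 differences. The count of called probe sets was 3949, and 3643 to 4406 without each array in turn. It was 6342 with array weights, 1535 with scan day as a block, and 801 on scan day 1 alone. RALFL33 passed with quantile normalization (log2 difference 0.80, limma adjusted p = 0.0138), with array weights (0.79, 0.00218), with the hybridisation controls as a term (0.69, 0.0465) and in 2 fits to fewer arrays, and RALFL31 passed with array weights (-0.95, 0.0156). With the title's number as a replicate block over the 14 numbers found in both regions, 3601 probe sets were called, 3577 in the same arrays without the block, and 4064 with the number as a random block. The block changed no call of a RALFL gene. Deviations of arrays with the same number correlated at -0.25 to 0.20, above 0.1 for 3 of the 14 numbers, so the numbers were not taken as pairs. Along the order 56 probe sets passed with 3 harmonics, 305 with 2, 0 with 1, 503 with no filter, 0 with quantile normalization and 0 with the hybridisation controls as a term, and no RALFL gene passed in any of these. The causes were not tested. The controls held 1.50% to 17.3% of the signal in OZ2 and 0.84% to 10.5% in OZ1, and no detection calls were used, so values of the dim genes RALFL18, RALFL25, RALFL26 and RALFL28 are uncertain. The alternative with another probe set per gene was not run, because each RALFL gene has 1.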
